A study of Mus musculus with 8 samples.

Results

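Mitochondrial ribosomal protein transcripts were examined in mouse muscle stem cells, which express Pax7 and rebuild injured muscle. The genes were chosen by symbol, as every row of the expression table named Mrpl or Mrps followed by a number and, in some cases, the letter a, b or c. There were 75 such genes among 17847, of which 47 are named for the large ribosomal subunit (Mrpl) and 28 for the small subunit (Mrps). All 75 passed the filter on low values, a value above 0 in at least 4 of the 8 libraries, which 17801 genes passed in all.

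RNA had been sequenced from 4 Cox10-/- and 4 wild-type samples of C57Bl/6 mice. In the Cox10-/- animals a floxed Cox10 allele had been recombined through Pax7-Cre (ERT2), a tamoxifen-dependent recombinase active in Pax7-expressing cells. The labels give every sample the same single intraperitoneal dose of tamoxifen, 200 mg/kg, and place the sort 2 days after it. They do not say whether the wild-type animals carried the Cre driver, give no age beyond adult, and do not say that each sample came from its own animal, so p-values measure the spread between these samples. The sort kept cells with CD34 on their surface and without Sca1, CD45 or CD31, and dropped dead cells by DAPI. The deposited values were log2 CPM, where CPM is a gene's reads scaled to the library's total.

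The mitochondrial ribosome translates the few messages of mitochondrial DNA, all of which encode subunits of the respiratory complexes, complex IV among them. Its RNAs are made in the mitochondrion, whereas its proteins are encoded in the nucleus and imported. Some of these proteins have a counterpart in the bacterial ribosome and others are found only in mitochondria. Cox10 makes a precursor of haem A, the cofactor that complex IV needs.

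A few names do not match the place of the protein in the known structure. Mrps30 and Mrps18a belong to the large subunit, and Mrps36 was later assigned to the alpha-ketoglutarate dehydrogenase complex. The groups below follow the names. With Mrps30 and Mrps18a counted as large-subunit proteins and Mrps36 left out, the large subunit has 49 genes and the small subunit 25. In the limma test described below, 3 of the 49 (6.12%) were lower in Cox10-/- cells and 1 (2.04%) was higher. Of the 25, 6 (24%) were lower and none higher. Among all genes tested, 8.51% were lower and 7.58% higher. A difference between the subunits so counted was not tested.

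Reads counted in genes numbered 1693114 to 4348315 in Cox10-/- libraries and 2149279 to 4652625 in wild-type libraries. The 75 genes together received 2075 to 6041 of these reads in Cox10-/- libraries and 2975 to 7601 in wild-type libraries. A single one of them received between 3 reads (Mrps34) and 322 reads (Mrpl48) in a library, and 13 of the 75 had fewer than 10 reads in at least 1 library. The shallowest libraries were Cox10-/- replicate 4 and wild-type replicate 2, and wild-type replicate 2 held the lowest wild-type value of 44 of the 75 genes. Within each genotype replicate 1 resembled replicate 2, and replicate 3 resembled replicate 4, more closely than other pairs did (chi-square per degree of freedom over reads of 2.64 to 3.06, against 4.77 to 7.72 in Cox10-/- and 4.93 to 7.3 in wild-type). None of these pairs was within sampling noise, so all 8 libraries were kept.

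Cox10 itself stood at 3.51, 3.69, 3.49 and 2.05 log2 CPM in Cox10-/- replicates 1 to 4, and at 3.98, 3.42, 4.12 and 3.69 in wild-type replicates 1 to 4. The groups overlapped and the difference did not pass the test (log2 fold change -0.62 ± 0.34 SE, limma adjusted p = 0.246). Without Cox10-/- replicate 4, the shallowest library, the log2 fold change was -0.24. Which exon was floxed is not named in the labels, and exons outside it could still yield reads. Reads by exon and the extent of recombination were not tested here. Of 10 muscle stem cell markers, all measured, 8 were lower in Cox10-/- cells, Pax7 itself by 1.29 (log2, ± 0.11 SE; limma adjusted p = 1.9e-05), and the markers together summed to 1290 to 1530 CPM there, against 2230 to 2940 CPM in wild-type. Of 10 endothelial markers 4 were higher, with sums of 348 to 433 CPM in Cox10-/- and 263 to 313 CPM in wild-type, without overlap. Of 10 myofibre markers 2 were higher, of 10 fibro-adipogenic markers 2 were higher and 2 lower, and of 9 measured mural markers 2 were higher and 3 lower. Median log2 fold changes were 1.17 for endothelial and 1.15 for myofibre markers. Sums overlapped between genotypes for myofibre markers (137 to 383 CPM in Cox10-/-, 95.6 to 248 CPM in wild-type), fibro-adipogenic markers (3840 to 7830 CPM in Cox10-/-, 3990 to 5260 CPM in wild-type), and mural and immune markers. Of 10 listed immune markers 4 were measured, none of them passed the test, and their median log2 fold change was 0.6. Rows for Ptprc, Adgre1, Itgam, Cd3e and Tyrobp of the immune list were not analysed here. The part of these other cells in the results below was not tested. In such bulk samples fewer cells with a transcript and less of it per cell cannot be told apart.

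Mitochondrial ribosomal protein transcripts were lower more often than higher in Cox10-/- cells, by small amounts. The log2 fold change lay below 0 for 63 of 75 (84%), where 55% of all 17801 genes lay below 0, and its median was -0.28, against -0.05 over all genes. By limma with Benjamini-Hochberg adjustment over all genes, 9 of the 75 fell and 1, Mrpl41, rose. The other 65 did not pass. Among all genes tested, 8.51% fell, 7.58% rose and 16.1% changed in either direction (1349 higher and 1514 lower), so that the 12% of the members that fell stand near the background. All 4 Cox10-/- libraries lay below all 4 wild-type libraries for 16 members (21.3%), where this held for 11.8% of all genes. The reverse held for 1 member, against 9.3% of all genes, and either held for 17, against 21.1%.

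**Figure D1:**
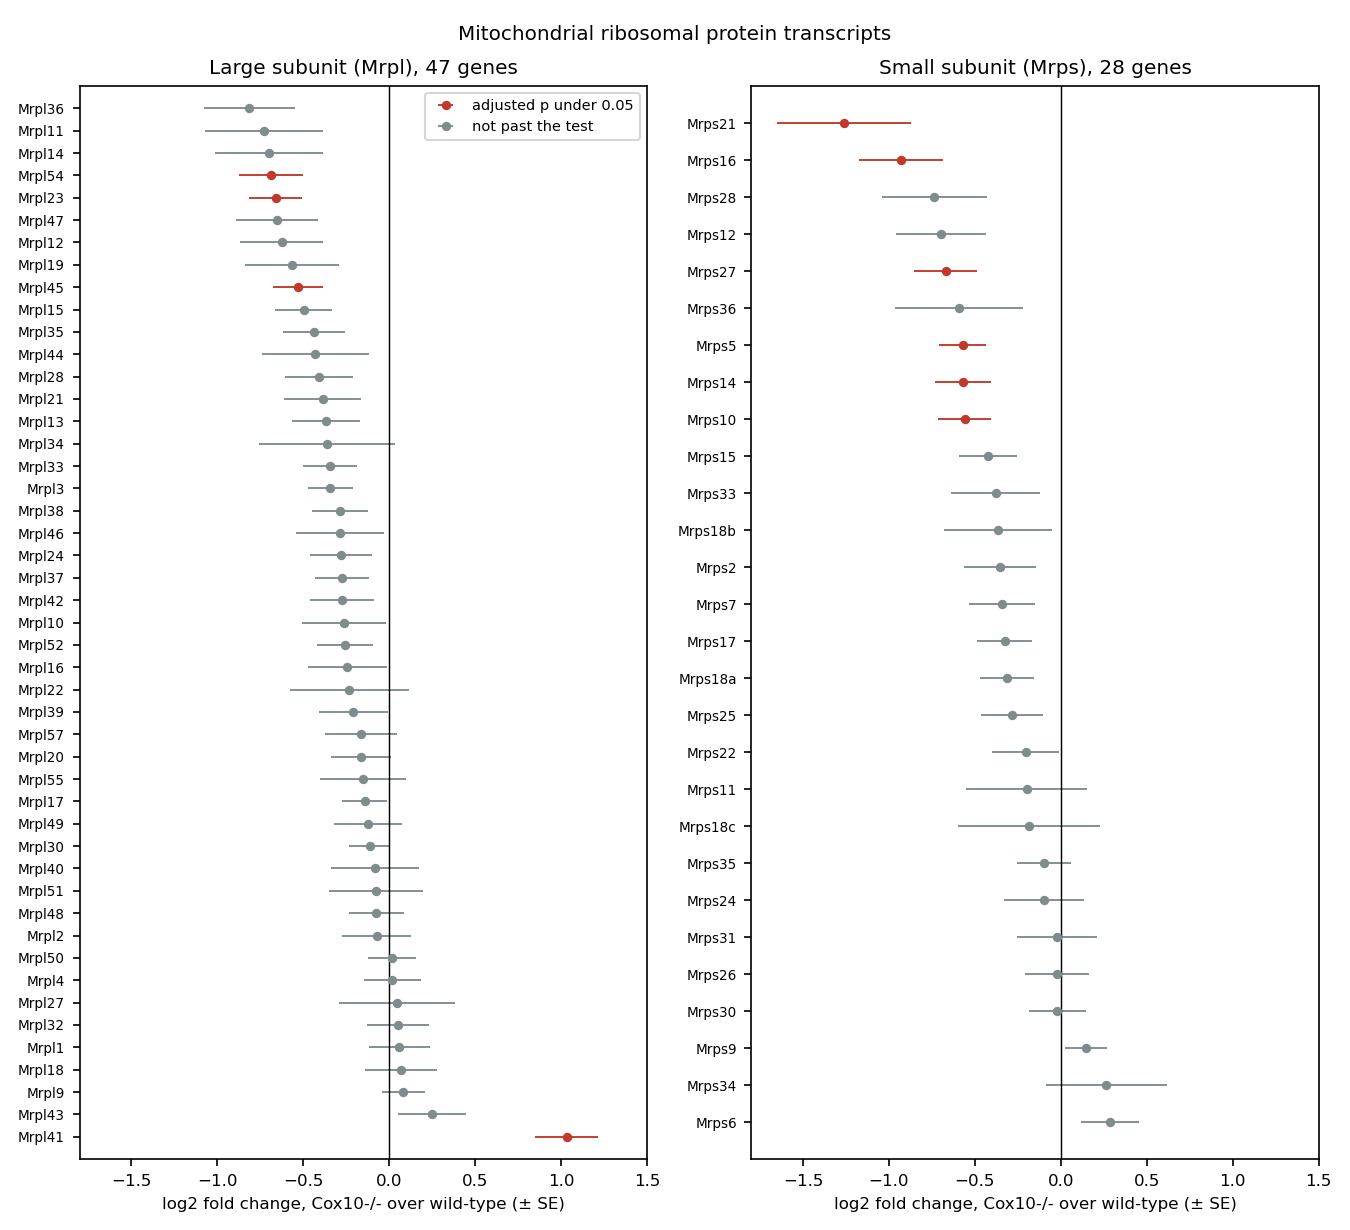
Log2 fold change of each mitochondrial ribosomal protein transcript, Cox10-/- over wild-type, with its standard error (x axis), for the 47 Mrpl genes on the left and the 28 Mrps genes on the right, sorted within each panel. Points in red passed the test at an adjusted p of 0.05. Most points lie left of 0, the lowest being Mrps21 at -1.26, and Mrpl41 stands alone on the right at 1.03.

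Of the small-subunit genes 6 of 28 (21.4%) fell and none rose, and of the large-subunit genes 3 of 47 (6.38%) fell and 1 rose. The medians were closer to each other, -0.33 for Mrps and -0.26 for Mrpl genes, and 25 of 28 and 38 of 47 lay below 0. The share without overlap and lower in Cox10-/- was 21.4% for Mrps and 21.3% for Mrpl genes. A difference between the subunits was not tested. These counts depended on single libraries. So did the calls over all genes, which numbered 2863 with all 8 libraries and 1840 to 2907 without 1. Without wild-type replicate 2 the counts rose to 9 Mrps and 6 Mrpl genes, among 2907 genes in all. Other fits gave fewer. Without wild-type replicate 1, 2 Mrps and 1 Mrpl gene passed, and without wild-type replicate 4, 1 Mrps and 2 Mrpl genes did. Without wild-type replicate 3 the number was 2 for Mrps genes, without Cox10-/- replicate 2 it was 3 for Mrps and 2 for Mrpl genes, and without Cox10-/- replicate 3 it was 2 for Mrpl genes. When replicate 1 was averaged with 2, and 3 with 4, leaving 2 means per genotype, no member passed limma's test, although 10 had an unadjusted p under 0.05, 9 of them lower. With all 8 libraries and a term for that split of the replicates, 5 Mrpl and 6 Mrps genes passed, among them the same 10 and Mrpl36. Without a trend in limma's variance prior, Mrps21 and Mrps14 did not pass, whereas Mrpl15 and Mrpl36 did. That fit called 2210 genes in all, among them 6 Mrpl genes, 5 of them lower, and 4 Mrps genes, all lower.

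Within a library the typical Mrpl and Mrps transcript stood near each other. The median Mrpl value was 3.87, 3.88, 3.98 and 3.88 log2 CPM in Cox10-/- replicates 1 to 4, and 4.13, 3.80, 4.35 and 4.22 in wild-type replicates 1 to 4. The median Mrps value was 3.92, 4.05, 3.93 and 3.93 in Cox10-/- and 4.31, 4.00, 4.25 and 4.33 in wild-type. Wild-type replicate 2 lay within or below the Cox10-/- range on both measures, and the other 3 wild-type libraries lay above every Cox10-/- library. The median Mrpl value minus the median Mrps value averaged -0.05 ± 0.09 in Cox10-/- and -0.10 ± 0.14 in wild-type (log2, SD, n = 4 each), a difference smaller than the spread between replicates.

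The median over all genes also differed between libraries, and wild-type replicate 2 (4.07) and Cox10-/- replicate 4 (3.99) were the lowest in it. Set against that median, Mrpl genes stood at -0.43, -0.39, -0.24 and -0.11 in Cox10-/- replicates 1 to 4, and at -0.15, -0.27, -0.06 and -0.13 in wild-type. Mrps genes stood at -0.38, -0.22, -0.29 and -0.06 in Cox10-/-, and at 0.03, -0.07, -0.16 and -0.02 in wild-type. Cox10-/- replicate 4, the shallowest library, thus lay among the wild-type libraries by this measure, and Cox10-/- replicates 1 to 3 lay below all of them for Mrps genes. After median centring the medians were -0.18 for Mrpl and -0.25 for Mrps genes, against 0.03 over all genes, 56 of the 75 lay below 0, and the same 10 members passed. Over all genes, centring moved the split of calls to 1764 higher and 1259 lower.

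**Figure D2:**
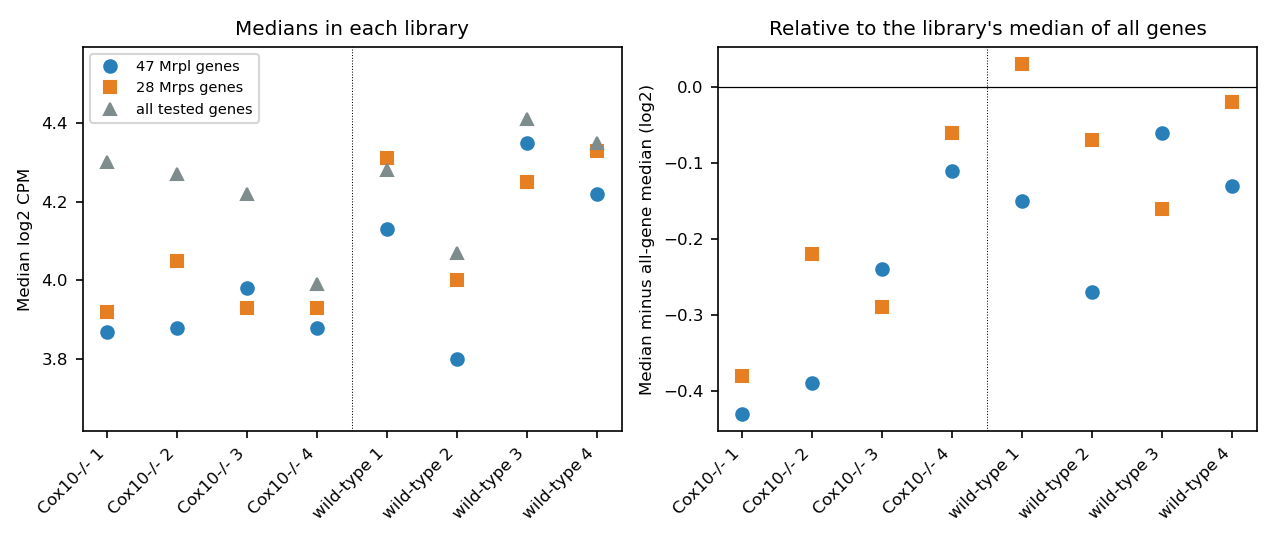
Left, median log2 CPM (y axis) of the 47 Mrpl genes, the 28 Mrps genes and all tested genes in each library (x axis, 4 Cox10-/- then 4 wild-type). Right, the Mrpl and Mrps medians minus the median of all genes in that library. Wild-type replicate 2 is low in the left panel, and Cox10-/- replicates 1 to 3 lie lowest for Mrps genes in the right one.

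Summed over genes, Mrps transcripts held 458 to 488 CPM in Cox10-/- libraries and 506 to 594 CPM in wild-type libraries, without overlap. Mrpl transcripts held 768 to 900.5 CPM in Cox10-/- and 880 to 1039 CPM in wild-type, with overlap. Mrpl transcripts made up 62.7% to 64.9% of the family's CPM in Cox10-/- and 62.4% to 63.6% in wild-type. The fold changes differed between the pairs of like replicates. In replicates 1 and 2 the median was -0.09 for Mrpl and -0.26 for Mrps genes, against 0.05 over all genes, and in replicates 3 and 4 it was -0.43 for both, against -0.15 over all genes. A total of 42 of the 75 lay below 0 in both, as did 6268 of all 17801 genes.

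Of the small-subunit proteins with a bacterial counterpart, 5 of 16 (31.2%, against 8.51% of all genes) fell and none rose. Their median was -0.39. Mrps16, variants of which cause a mitochondrial disease in humans, stood at 2.28, 2.05, 2.27 and 2.05 log2 CPM in Cox10-/- replicates 1 to 4, and at 3.13, 2.80, 3.24 and 3.20 in wild-type replicates 1 to 4. Every Cox10-/- library lay below every wild-type library. Mrps16 fell by 0.93 on the log2 scale (± 0.25 SE, n = 4 per genotype; limma adjusted p = 0.0226), to 52.5% of the wild-type level. The exact two-sided permutation p over the 70 assignments of libraries was 0.0286, the smallest that this design allows, as it was for every member without overlap. Of the 8 fits that left out 1 library, 4 lost the call, with adjusted p up to 0.0663. The library with the fewest reads of Mrps16 held 7.

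Mrps21, the counterpart of bacterial S21, had the lowest fold change of all 75, at -1.26 ± 0.39 (adjusted p = 0.0463). Its values were 2.75, 1.69, 0.95 and 2.24 log2 CPM in Cox10-/- and 3.38, 2.48, 3.34 and 3.48 in wild-type. Cox10-/- replicate 1 lay above wild-type replicate 2, so the groups overlapped, and the exact p was 0.0571. Replicates 1 and 2 gave a difference of -0.71 and replicates 3 and 4 one of -1.81. Of the 8 fits that each left out 1 library, 6 lost the call.

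Mrps5, a protein of the mRNA entry region, is among the better measured members, with 55 to 242 reads in a library. It stood at 5.36, 5.15, 4.76 and 5.02 log2 CPM in Cox10-/- and at 5.62, 5.58, 5.70 and 5.68 in wild-type. All 4 Cox10-/- values lay below the wild-type values, which had an SD of 0.06. Mrps5 fell by 0.57 (± 0.14 SE; adjusted p = 0.0149), and its call held in all 8 fits without 1 library.

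Mrps14 and Mrps10 are proteins of the head of the small subunit. Mrps14 stood at 4.27, 4.65, 4.70 and 4.28 log2 CPM in Cox10-/- and at 5.28, 4.78, 5.05 and 5.07 in wild-type, and fell by 0.57 (± 0.17 SE; adjusted p = 0.0348). Mrps10 stood at 4.38, 4.45, 4.47 and 4.05 in Cox10-/- and at 4.76, 4.85, 4.96 and 5.02 in wild-type, and fell by 0.56 (± 0.15 SE; adjusted p = 0.027). Neither gene showed overlap between genotypes. Of the fits that left out 1 library, 5 lost the call of Mrps14 and 2 that of Mrps10.

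Of the 12 other small-subunit genes 1 fell (8.33%, against 8.51% of all genes). This was Mrps27, which encodes a protein with pentatricopeptide repeats that binds mitochondrial RNA. It stood at 3.65, 3.52, 3.45 and 3.41 log2 CPM in Cox10-/- and at 4.42, 4.14, 4.03 and 4.12 in wild-type, without overlap. It fell by 0.67 (± 0.18 SE; adjusted p = 0.0259), by like amounts in replicates 1 and 2 (-0.69) and 3 and 4 (-0.64), and lost its call in 4 of the 8 fits. Its exons overlap those of 6430562O15Rik in GENCODE, as exons of 24 of the 75 members overlap another gene, and the sources used here do not give whether reads were counted by strand. The median of these 12 genes was -0.24.

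Large-subunit proteins with a bacterial counterpart numbered 30, of which 1 fell (3.33%, against 8.51% of all genes). This was Mrpl23, a protein at the mouth of the tunnel through which the new chain leaves. It stood at 3.85, 4.01, 3.95 and 4.05 log2 CPM in Cox10-/- and at 4.80, 4.65, 4.47 and 4.58 in wild-type. All Cox10-/- values lay below all wild-type values. Mrpl23 fell by 0.66 (± 0.16 SE; adjusted p = 0.0135) and, of the fits that left out 1 library, lost its call in the one without wild-type replicate 1, at an adjusted p of 0.0533. The table also has a row for the pseudogene Mrpl23-ps1, and the sources used here do not give how reads that match both were counted. That row stood at 1.35, 0.69, 0.95 and 0.24 in Cox10-/- and at 2.17, 2.48, 2.18 and 2.16 in wild-type (-1.44 ± 0.32, adjusted p = 0.00932), so the values of Mrpl23 are uncertain to that extent.

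Of the 17 large-subunit proteins found only in mitochondria, 2 fell (11.8%) and 1 rose (5.88%), with a median of -0.21. Among all genes 8.51% fell and 7.58% rose. Mrpl45, which lies at the tunnel exit and helps to hold the ribosome at the inner membrane, stood at 4.18, 4.22, 4.25 and 4.05 log2 CPM in Cox10-/- and at 4.76, 4.65, 4.60 and 4.82 in wild-type. It fell by 0.53 (± 0.15 SE; adjusted p = 0.0274). Mrpl54 stood at 3.70, 3.52, 3.32 and 3.63 in Cox10-/- and at 4.26, 4.03, 4.41 and 4.22 in wild-type, and fell by 0.69 (± 0.18 SE; adjusted p = 0.0242). Neither showed overlap between genotypes, and each lost its call in 5 of the 8 fits without 1 library. Mrpl45 also lost its call with a replicate block.

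Mrpl41 moved in the opposite direction. Its protein lies in the large subunit, and the human protein has also been described as a partner of BCL2 with a role in cell death. Mrpl41 stood at 4.33, 4.77, 4.92 and 4.70 log2 CPM in Cox10-/- and at 3.46, 3.65, 3.85 and 3.63 in wild-type. The lowest Cox10-/- library lay above the highest wild-type library. Mrpl41 rose by 1.03 (± 0.18 SE, n = 4 per genotype; adjusted p = 0.00272), to 205% of the wild-type level, with differences of 1.00 in the first pair of replicates and 1.07 in the second. Leaving out any 1 library kept the call, with adjusted p at most 0.0152, and it was lost with 2 means per genotype. GENCODE lists no other gene that overlaps its exons.

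**Figure D3:**
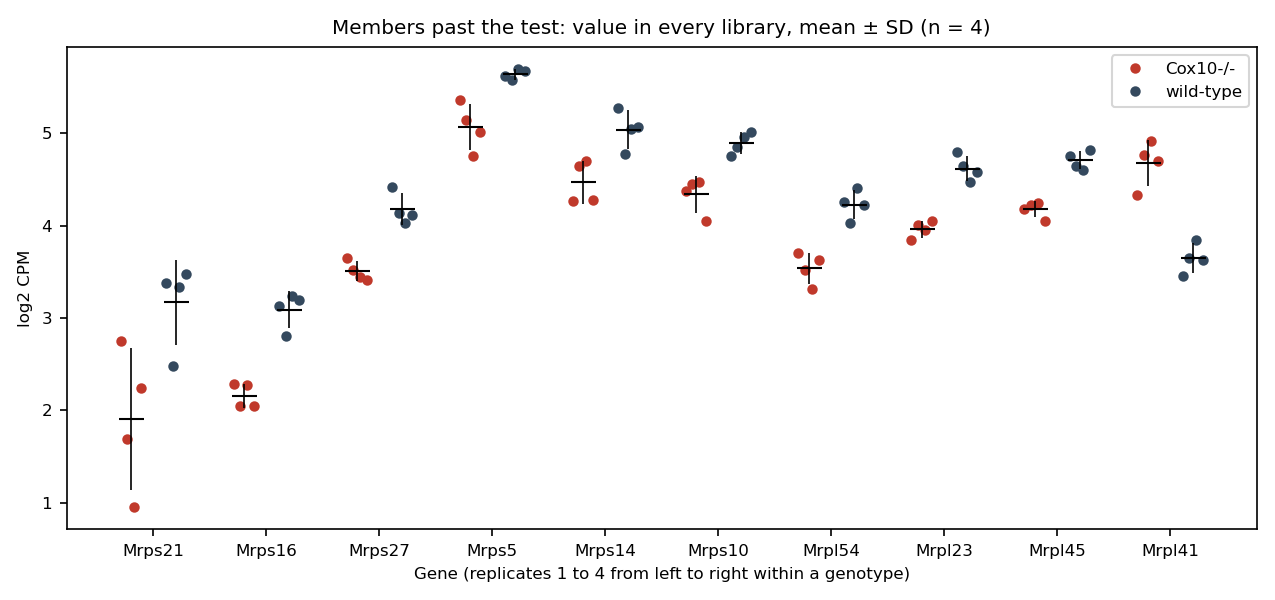
Log2 CPM (y axis) of the 10 members that passed the test (x axis), with one point per library, Cox10-/- in red to the left and wild-type in blue-grey to the right of each gene, and mean ± SD over 4 libraries in black. Only Mrps21 has points that overlap between genotypes, and Mrpl41 is the only gene with Cox10-/- on top.

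A further 8 members were lower in every Cox10-/- library than in any wild-type library but did not pass the test. These were Mrpl36, Mrpl47, Mrpl15, Mrpl35, Mrpl33, Mrpl3, Mrpl20 and Mrps15. The lowest fold change among them was that of Mrpl36, at -0.81 ± 0.26 (adjusted p = 0.0545). It passed with the term for the split of the replicates (adjusted p = 0.0397), with limma-voom on reads (0.0254), on a log2(CPM + 1) scale (0.0489), without a variance trend (0.0394), and without wild-type replicate 2 (0.0165) or the 2 shallowest libraries (0.0146). In the other alternatives its adjusted p was 0.0543 to 0.257. Mrpl36 stood at 2.48, 2.46, 2.61 and 2.70 log2 CPM in Cox10-/- and at 3.53, 2.80, 3.37 and 3.80 in wild-type. Its exons overlap those of Ndufs6, a complex I subunit that fell by 0.99 (± 0.28 SE; adjusted p = 0.0332), and reads of the overlap could be split between them.

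The other large-subunit genes with the lowest fold changes were Mrpl11, at -0.73 ± 0.34 (adjusted p = 0.173), and Mrpl14, at -0.70 ± 0.32 (adjusted p = 0.153). Both overlapped between genotypes, and without Cox10-/- replicate 4 the fold change of Mrpl11 was -0.40. Mrpl12, the stalk protein that recruits translation factors, was at -0.63 ± 0.24 (adjusted p = 0.0992), with wild-type replicate 2 (3.42) inside the Cox10-/- range of 3.05 to 3.69 and the other wild-type libraries at 4.15 to 4.24. In the small subunit, Mrps28 was at -0.74 ± 0.31 (adjusted p = 0.122), Mrps12, a protein of the decoding centre, at -0.70 ± 0.26 (adjusted p = 0.0891), and Mrps36 at -0.59 ± 0.37 (adjusted p = 0.304). Without Cox10-/- replicate 4, Mrps28 was at -0.49 and Mrps36 at -0.27. Without wild-type replicate 2, Mrpl12, Mrps28, Mrps12, Mrpl36 and Mrps17 passed as well, giving 9 Mrps and 6 Mrpl genes.

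At the other end, Mrpl43 (0.25 ± 0.20), Mrpl9 (0.08 ± 0.13) and Mrpl18 (0.07 ± 0.21) had the highest fold changes of Mrpl genes that did not pass. Among Mrps genes these were Mrps6 (0.29 ± 0.17), Mrps34 (0.27 ± 0.35) and Mrps9 (0.15 ± 0.12). The 95% interval of the log2 fold change of Mrps9 ran from -0.12 to 0.41. Exons of Mrps6 overlap those of Slc5a3 in GENCODE, and reads there may be shared.

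None of the S18 family passed the test. Mrps18a, a large-subunit protein in spite of its name, stood at 4.27, 4.35, 4.04 and 4.15 log2 CPM in Cox10-/- and at 4.65, 4.54, 4.56 and 4.31 in wild-type (-0.31 ± 0.16, adjusted p = 0.202). Mrps18b, a small-subunit protein, had a fold change of -0.37 ± 0.32 (adjusted p = 0.47). Mrps18c, the counterpart of bacterial S18, stood at 1.35, 1.34, 3.01 and 2.05 in Cox10-/- and at 1.5, 2.07, 2.24 and 2.69 in wild-type (-0.19 ± 0.41, adjusted p = 0.795). With 7 to 26 reads in a library, Mrps18c had the widest spread of the 75 among Cox10-/- libraries (SD 0.79), where the median member had an SD of 0.20. Mrps30, the other large-subunit protein with an Mrps name, averaged 4.10 ± 0.11 log2 CPM in Cox10-/- and 4.12 ± 0.15 in wild-type (SD, n = 4 each), and the 95% interval of its log2 fold change was -0.38 to 0.34.

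Levels were compared between genes as CPM per kb of coding length, taken from GENCODE, which leaves untranslated exons out and so raises genes with short coding parts. On this scale the median Mrpl gene stood at 25.8 in Cox10-/- and 28.5 in wild-type, and the median Mrps gene at 19.4 in Cox10-/- and 28.2 in wild-type. Such medians can fall on different genes in each genotype. The median log2 fold changes were closer to each other, -0.26 for Mrpl and -0.33 for Mrps genes. In wild-type cells the highest Mrpl genes were Mrpl33 (178 ± 16.7 CPM per kb, SD, n = 4), Mrpl17 (111 ± 11.3) and Mrpl48 (98.0 ± 8.75), of which Mrpl33 and Mrpl17 differ by more than their spread. The highest Mrps genes were Mrps6 (120 ± 26.8), Mrps17 (91.4 ± 16.5) and Mrps14 (86.6 ± 12.1), of which Mrps17 and Mrps14 lay within their spread of each other. The lowest Mrpl genes were Mrpl44 (9.65 ± 3.51), Mrpl46 (9.96 ± 2.14) and Mrpl22 (11.2 ± 4.38), and the lowest Mrps genes were Mrps34 (3.21 ± 0.915), Mrps18c (10.6 ± 3.49) and Mrps11 (11.1 ± 3.25). Within each set of lowest genes the levels lay within their spread of each other, other than Mrps34, which was measured by 3 to 14 reads in a library. A row for the pseudogene Mrpl48-ps was counted apart from Mrpl48.

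**Figure D4:**
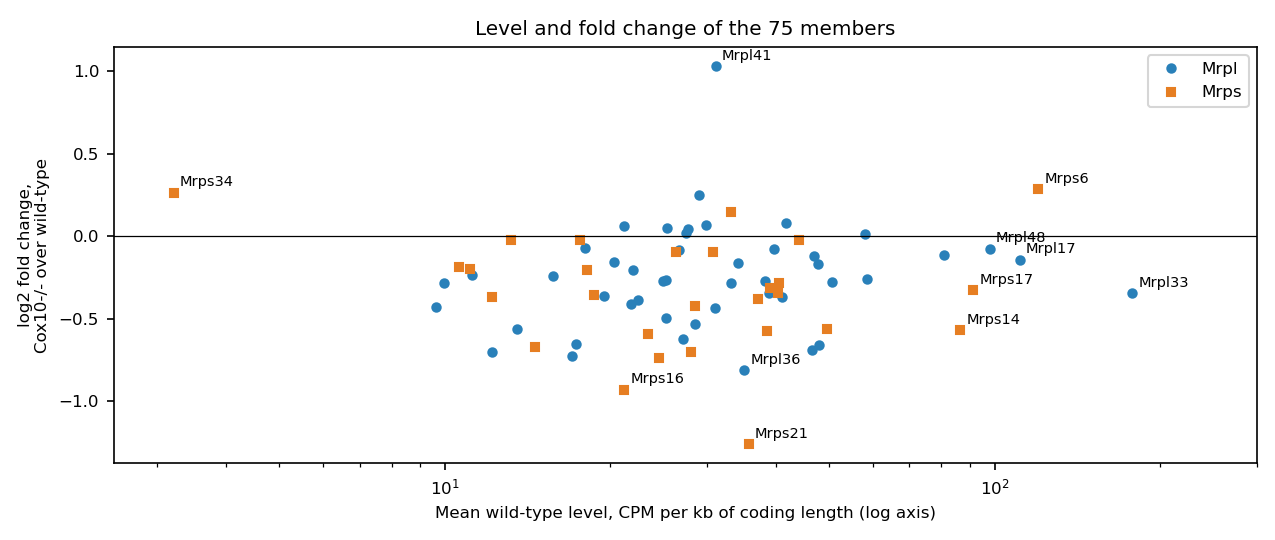
Mean wild-type level of each of the 75 members as CPM per kb of coding length (x axis, log scale) against its log2 fold change, Cox10-/- over wild-type (y axis), with Mrpl genes as circles and Mrps genes as squares. Mrps34 is lowest in level and Mrpl33 highest, and Mrps21 and Mrpl41, the ends of the fold changes, lie in the middle of the levels.

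The rest of the mitochondrial translation machinery was read from lists of known factors. Of 6 measured ribosomal proteins under other names, none passed the limma test (2 had an unadjusted p under 0.05), all lay below 0, and the median was -0.28. Among these Ict1, a peptidyl-tRNA hydrolase built into the large subunit, was lower in every Cox10-/- library (3.90 to 4.16 log2 CPM) than in any wild-type library (4.28 to 4.54), with an adjusted p of 0.115. Of 27 measured factors that assemble the ribosome or modify its RNA, 1 fell (3.7%, against 8.51% of all genes) and none rose. Their median was -0.15. Noa1, a GTPase needed for the small subunit, fell by 0.67 (± 0.20 SE; adjusted p = 0.0399) and lost its call in 6 of the 8 fits without 1 library.

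Of 19 translation factors and partners, 3 fell and 1 rose, with a median of -0.24. That is 21.1% in either direction, against 16.1% of all genes. Tufm, the elongation factor that brings aminoacyl-tRNA to the ribosome, stood at 4.89, 4.72, 5.01 and 4.73 log2 CPM in Cox10-/- and at 5.42, 5.37, 5.56 and 5.43 in wild-type. The groups did not overlap, Tufm fell by 0.61 (± 0.13 SE; adjusted p = 0.00641), and the call held in all 8 fits without 1 library. Mtif2, the initiation factor that brings in the first tRNA, fell by 0.54 (± 0.15 SE; adjusted p = 0.0249). Lrpprc, which stabilises mitochondrial messages, fell by 0.45 (± 0.12 SE; adjusted p = 0.0261). Mss51, known in yeast as an activator of Cox1 translation, rose by 0.90 (± 0.27 SE; adjusted p = 0.0399). The calls of Mtif2, Lrpprc and Mss51 were lost in 3, 5 and 6 of the 8 fits. The ribosome's own RNAs, named after their values were seen, did not pass the test. The small-subunit RNA mt-Rnr1 stood at 8.25, 8.31, 8.71 and 9.43 log2 CPM in Cox10-/- and at 8.54, 9.05, 8.21 and 8.36 in wild-type (0.14 ± 0.24, adjusted p = 0.745), and its highest value was that of Cox10-/- replicate 4.

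Promoters were searched for the letters of 4 motifs, and a link between these letters and the fold changes was not tested. RefSeq windows of 300 bases, from 250 before to 50 after the most upstream start of a gene, matched 66 of the 75 members and 11044 of the tested genes. Letters were searched on both strands. The NRF1 letters (GCGCA, any base, GCGC) occurred in 19.7% of the member windows and in 4.82% of all 27025 windows (9.7% of the tested genes with a window). The ETS letters CCGGAAG occurred in 31.8% of member windows, 9.14% of all windows and 16.7% of those of tested genes. The YY1 letters AANATGGCG occurred in 15.2% of member windows, 2.5% of all windows and 4.9% of those of tested genes. The E-box CACGTG occurred in 7.6% of member windows, 7.24% of all windows and 9.8% of those of tested genes. A match is a description of letters and not a bound site. By subunit, the NRF1 letters were in 10 of 41 Mrpl and 3 of 25 Mrps windows, and the ETS letters in 12 and 9. Of 8 members that fell and had a window, 2 held the NRF1 letters and 2 the ETS letters. The upstream parts of 3 promoters are shown, those of the 2 fallen members with NRF1 letters and that of Mrpl41, which rose and held none of the 4 motifs in these bases. All are in GRCm38.p6, 5′ to 3′ on the gene's strand, ending at the base before the start, with the NRF1 letters, read on either strand, in capitals. Exons of the non-coding gene C920021L13Rik overlap the Mrps21 stretch in GENCODE.
Mrps21, chr3:95871515-95871764, minus strand: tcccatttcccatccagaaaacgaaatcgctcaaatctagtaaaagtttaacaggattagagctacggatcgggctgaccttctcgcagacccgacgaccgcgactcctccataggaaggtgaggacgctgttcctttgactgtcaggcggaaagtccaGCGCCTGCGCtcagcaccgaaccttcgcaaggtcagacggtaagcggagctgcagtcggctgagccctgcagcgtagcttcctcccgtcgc
Mrpl45, chr11:97315466-97315715, plus strand: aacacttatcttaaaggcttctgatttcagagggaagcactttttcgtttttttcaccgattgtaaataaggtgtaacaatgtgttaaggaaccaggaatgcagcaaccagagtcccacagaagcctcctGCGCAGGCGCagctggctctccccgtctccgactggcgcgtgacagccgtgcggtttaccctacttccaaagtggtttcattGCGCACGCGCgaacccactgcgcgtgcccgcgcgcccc
Mrpl41, chr2:24975099-24975348, minus strand: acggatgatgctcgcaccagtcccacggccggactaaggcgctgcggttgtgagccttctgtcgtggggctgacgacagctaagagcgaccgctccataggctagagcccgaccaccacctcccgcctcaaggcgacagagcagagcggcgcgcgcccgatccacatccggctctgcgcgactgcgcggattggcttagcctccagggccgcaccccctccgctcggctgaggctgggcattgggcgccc

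Many of the genes share a start region with a neighbour. In GENCODE vM21, 17 of the 75 (22.7%) had a protein-coding gene starting within 500 bp upstream on the other strand, against 6.2% of 21909 protein-coding genes. The window was chosen after the data were seen. Among all tested genes 7.58% rose and 8.51% fell. Of 16 such neighbours tested, 3 rose and 1 fell, and a difference from these shares was not tested. The one that fell was Ptcd2, the neighbour of Mrps27 and also a mitochondrial RNA-binding protein, by 0.56 (± 0.16 SE; adjusted p = 0.0308). Its call was lost after median centring, with a replicate block (adjusted p = 0.0558) and in 5 of the 8 fits without 1 library. Those that rose were Ska3, a kinetochore gene next to Mrpl57 (1.12 ± 0.26, adjusted p = 0.0119), the condensin gene Ncapd2 next to Mrpl51 (0.76 ± 0.21, adjusted p = 0.0298), and Ppp1r10 next to Mrps18b (0.31 ± 0.08, adjusted p = 0.0236). The ribosomal partners of these 3, Mrpl57 (-0.17 ± 0.21), Mrpl51 (-0.08 ± 0.27) and Mrps18b, did not pass. The calls of Ncapd2 and Ppp1r10 were lost in 6 and 5 of the 8 fits and that of Ska3 in none. Ncapd2 also did not pass by limma-voom (adjusted p = 0.0566).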

How the data were processed

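Per the labels' protocols, RNA was extracted with an RNeasy Micro kit and libraries were made with a stranded SMARTer kit for small inputs of total RNA. Build mm9 and the tools HISAT2, featureCounts, Trim Galore and DESeq2 are listed in the submitters' processing notes. The sources used here do not give versions, parameters or strand counting. The authors deposited log2 CPM rounded to 2 decimals, with a CPM of 1 or less written as 0. Rounding and that floor affect low genes most. The worth of 1 read in a library was chosen so that all values up to 20 reads fell on whole reads, within 0.1 read. Reads per library were recovered from it, so the whole values are not a separate check. A total of 1054 rows without a gene were left out.

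Genes above 0 in at least 4 of 8 libraries (17801) were fitted with limma 3.58.1 in R 4.3.3 on genotype alone, with a variance trend, and p-values were adjusted over all of them by Benjamini-Hochberg at 0.05. No pseudocount was added, and SE is the standard error of the log2 fold change. The fit was tested on simulated data. Exact tests permuted all 70 assignments of libraries. Coding lengths, overlaps and neighbours came from GENCODE vM21 and promoters from RefSeq GRCm38.p6. No coordinate from the files was used.

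Members and gene lists were chosen with earlier results of these data known. Named genes were those past the threshold, the 3 highest and 3 lowest fold changes and levels of the rest in each subunit, genes whose name and place differ, the S18 family, Mrpl12, Mrps12, and called genes of each list. Features named outside that rule (Mrpl36's overlap partner, the pseudogenes, the mitochondrial rRNAs, Ict1 and the upstream neighbours) were chosen after their values were seen. Mrpl53 and Mrps23 are not analysed here. Alternatives were other filters, pseudocounts, scalings and variance priors, limma-voom on recovered reads, a replicate block, and fits without single libraries.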

Additional observations from a re-analysis of the deposited data

Results flagged for a closer look

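In 11 cases 1 library stood apart from the other 3 of its genotype. The gap, as a share of the genotype's range, was above Dixon's 95% critical value for 4 samples. Each of the 75 members was checked in both genotypes, and chance flags about 1 in 20 such groups. As the measure is relative to the range, a flagged gap can be small. The values that follow are log2 CPM. Wild-type replicate 2 was the library in 5 of them. It stood low for Mrpl12 (3.42, others 4.15 to 4.24), Mrps21 (2.48, others 3.34 to 3.48), Mrpl11 (2.90, others 3.38 to 3.43) and Mrpl2 (3.80, others 4.10 to 4.14), and high for Mrpl30 (5.44, others 5.21 to 5.23). This library was among the shallowest. Cox10-/- replicate 4, the shallowest, stood low for Mrps28 (2.24, others 3.14 to 3.30) and Mrpl35 (3.49, others 3.72 to 3.76). Cox10-/- replicate 3 stood high for Mrpl43 (4.36, others 3.88 to 3.94). Mrpl20 stood low in Cox10-/- replicate 1 (3.62, others 3.81 to 3.82) and high in wild-type replicate 3 (4.05, others 3.87 to 3.90). Mrpl9 stood low in wild-type replicate 4 (4.95, others 5.10 to 5.11). The part of depth in these values was not tested.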

How the results depend on the processing

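Medians of Mrpl and Mrps genes stayed below 0 under every alternative, from -0.32 to -0.21 and from -0.36 to -0.30 without single libraries. Counts of calls moved more. Without 1 library, 1840 to 2907 genes passed, with 1 to 6 Mrpl and 1 to 9 Mrps genes. With 2 means per genotype 858 genes passed, and 0 Mrpl and 0 Mrps genes. Voom on reads gave 3001 genes, 6 Mrpl and 6 Mrps. A log2(CPM + 1) scale gave 2771, 5 and 6. Same-number correlations of deviations were 0.05, 0.14, 0.11 and 0.13, and not every sample was nearest its own number. Cox10-/- replicate 2 was nearest wild-type replicate 1 (0.16), and Cox10-/- replicate 3 nearest wild-type replicate 4 (0.15). Both lay within the same pair of like replicates. Replicate numbers were not taken as pairs in the main fit. A term for replicates 1 and 2 against 3 and 4 gave 3838 genes, 5 and 6. With the replicate block 3201 genes passed, with 3 Mrpl and 6 Mrps. Signs were followed under every alternative only for the members named by the rule above, and reversals there were seen only for members that did not pass. Among members not followed in this way, Mrpl2, Mrpl48, Mrpl51, Mrps26 and Mrps31 turned from below to above 0 after centring. Mrpl18 ranged from -0.054 to 0.196 without 1 library and was -0.073 without the 2 shallowest, where Mrps34 was -0.007. Mrps30 was 0.063 after centring and -0.082 to 0.038 without 1 library, and Mrps18c was -0.545 to 0.012. Causes were not tested. Of the 75 members, 13 had fewer than 10 reads in a library.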
